A study of Quercus robur with 12 samples.

Results

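The miR396 family of pedunculate oak (Quercus robur) was followed here through small RNA libraries of the root meristematic zone. Its members were taken by name: every entry of the count table whose name starts with qrb-miR396, which gave 3 of the 75 miRNAs (qrb-miR396a, qrb-miR396b and qrb-miR396c, written without the prefix from here on). The table holds 12 libraries in 4 groups of 3, named by root type, taproot (TR) or lateral root (LR), and by watering, control (CT) or drought stress (DS): TR-CT, TR-DS, LR-CT and LR-DS. All plants were wild-type seedlings grown for 1 year and kept for 8 weeks under optimal watering in rhizotrons, flat transparent chambers, before the drought groups spent 4 weeks at 25% of the soil moisture of the control. Each biological replicate pooled 10 to 15 root tips. Seedlings had been raised either in containers and transplanted or in the rhizotrons from the start, and per the study's methods both kinds were exposed to drought, while the sample labels describe it for transplanted seedlings. Which kind a library came from is not given per sample, so drought and cultivation cannot be told apart here.

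miR396 is an ancient plant miRNA. In Arabidopsis it guides the cleavage of transcripts of GROWTH-REGULATING FACTORs (GRFs), transcription factors that work with GIF co-activators to keep cells dividing. In the Arabidopsis root meristem, miR396 and the GRFs are known to restrict each other between the stem cells and the dividing cells above them, and in leaves the miRNA limits cell number. A plant miRNA family usually has several genes whose mature products differ at 1 or a few bases, and the duplex of each precursor has a second strand that is mostly degraded.

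The sequences below show what the family can pair with. The mature sequences come from the supplementary degradome table of the study, a list of transcripts with cleavage products at miRNA sites, in which 2 different 21-nt sequences carry the name miR396 without a letter. The text of the study pairs the GRF transcripts listed for sequence 1 with miR396a. No source used here gives the mature sequences by letter, so whether miR396b or miR396c shares sequence 1, and which member sequence 2 is, was not settled. Each is written 5′ to 3′ with the seed, bases 2 to 8, in capitals:
miR396 sequence 1: uUCCACGGcuuucuugaacug
miR396 sequence 2: gCUCAAGAaagcugugggaga
The seeds differ, so these sequences form 2 seed groups of 1. Their longest uninterrupted stretch of pairing with each other, with G:U pairs allowed, covered 17 nt. The strands of a precursor duplex would pair in this way, so the 2 seeds need not belong to 2 guide strands. Whether sequence 2 is a second strand was not tested. Sequence 1 was listed with 4 oak transcripts and sequence 2 with 1.

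The sites listed for sequence 1 are shown because they include the transcripts named after the family's textbook targets, GRF4 (Qrob_T0026800.2) and GRF10 (Qrob_T0769850.2). Capitals mark the site bases opposite the seed:
Qrob_T0026800.2 (GRF4): ccguucaagaaagCCuGUGGAa
Qrob_T0088850.2: ccguucaagaaagCCuGUGGAa
Qrob_T0415350.2: gcguucaagaaagCCuGUGGAa
Qrob_T0769850.2 (GRF10): gcguucaagaaagCUuGUGGAa
Each of these 22-nt sites has 1 bulged base, with no miRNA base opposite it, between the bases opposite miRNA positions 6 and 7. Other unpaired site bases are mismatches. The site in GRF4 formed 20 Watson-Crick pairs with the 21 bases of sequence 1, and the site in Qrob_T0088850.2 was identical to it. Counted from 1 at the 5′ end of the site in GRF4, Qrob_T0415350.2 differed by C1G, which left 19 pairs. GRF10 differed by C1G and C15U, which left 18 pairs and 1 G:U pair inside the seed. For sequence 2 the listed transcript was Qrob_T0283280.2, whose site, with the same use of capitals, formed 14 Watson-Crick and 3 G:U pairs:
Qrob_T0283280.2: gugcccacaguuuUUGAGAGc
In Qrob_T0283280.2 only 4 of the 7 seed positions formed Watson-Crick pairs and 1 a G:U pair, so its capitals are not all paired. The pairing is a description of these letters. The levels of the transcripts were not analysed here.

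Before the values, the libraries need a word. Total counts lay between 160039 (LR-DS 3) and 1267473 (TR-CT 2), and a single 16-nt sequence took 34.1% (LR-CT 2) to 89.1% (TR-CT 2) of them, so that 26087 to 557180 counts per library were left for all other miRNAs. Over the log2 levels of all miRNAs, TR-CT 3 correlated better with the TR-DS libraries (mean r = 0.883) than with its own group (0.818), and TR-DS 2 better with the TR-CT libraries (0.897) than with its own (0.812). The other 10 libraries correlated better with their own group than with the other watering of their root type. Some results in taproots are therefore also given without TR-CT 3 and TR-DS 2, an alternative chosen after the data had been seen. Because these libraries resembled the other watering, leaving them out favours a drought difference. A lower FDR in that alternative is therefore no added support for such a difference. LR-DS 3 was the shallowest library. In whole root tips, fewer cells of a type and less RNA per cell cannot be told apart.

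miR396c made up nearly all of the family in every library. The TR-CT libraries held 6228, 4300 and 7951 counts of it and the TR-DS libraries 4738, 2502 and 12847. The LR-CT libraries held 5733, 10516 and 11519 and the LR-DS libraries 4592, 4961 and 489. These were 93.5% (LR-CT 1) to 99.8% (LR-DS 3) of the miR396 counts of a library, and miR396c ranked between 6 and 11 among the 75 miRNAs of each library. A miRNA read spans the whole molecule, so counts of members were compared without scaling by length.

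miR396b was the second member in 11 of the 12 libraries. Taproots had 268, 154 and 187 counts under control conditions (TR-CT) and 72, 39 and 75 under drought (TR-DS). Lateral roots had 277, 517 and 469 (LR-CT) and 37, 109 and 0 (LR-DS). It ranked between 31 and 59. The library at 0 was LR-DS 3, the one with only 490 miR396 counts.

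miR396a was the scarcest member in 11 of the 12 libraries. Its counts were 18, 19 and 9 for TR-CT against 0, 0 and 61 for TR-DS, and 122, 76 and 127 for LR-CT against 35, 18 and 1 for LR-DS. Within TR-DS it was therefore undetected in TR-DS 1 and TR-DS 2, which allows a share of miR396 counts of up to 0.0624% and 0.118% (3 counts), while TR-DS 3 had 0.470% (95% Wilson interval 0.366 to 0.603). Intervals and limits of this kind describe counting error alone, because reads were not tagged by molecule.

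On the scale of log2 CPM (TMM scaling over the 12 libraries, prior count 2), miR396c was highest in TR-DS (13.49 ± 0.87, mean ± SD, n = 3), followed by TR-CT (13.41 ± 1.01), LR-CT (12.46 ± 0.39) and LR-DS (12.44 ± 0.68). No neighbours in this order differed beyond their spread, since every step was smaller than the larger SD of the pair. miR396b followed another order, from TR-CT (8.50 ± 0.68) over LR-CT (8.02 ± 0.36) and TR-DS (7.03 ± 0.93) to LR-DS (4.87 ± 3.13). Here the control groups of both root types stood above both drought groups in the mean, and only the step from LR-CT to TR-DS exceeded both SDs. miR396a was highest in LR-CT (6.12 ± 0.41), followed by TR-CT (4.86 ± 0.02), LR-DS (4.64 ± 1.38) and TR-DS (2.94 ± 2.79), and only its step from LR-CT to TR-CT exceeded both SDs.

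**Figure D1:**
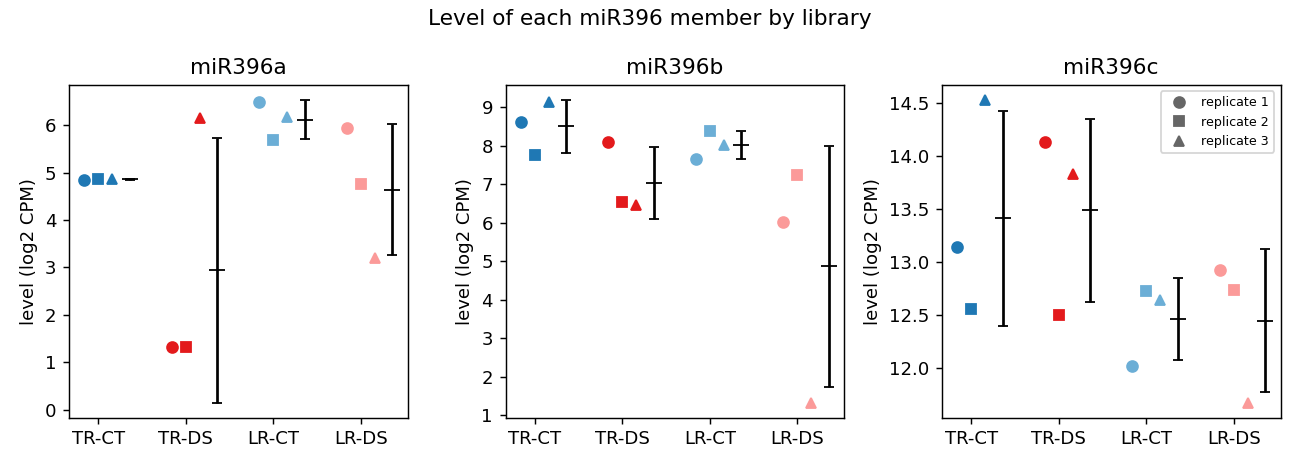
Level of miR396a, miR396b and miR396c (log2 CPM, TMM scaling over 12 libraries, prior count 2) in each library of TR-CT, TR-DS, LR-CT and LR-DS. Symbols mark the replicates, the black bar the mean ± SD of 3 libraries, and the vertical axes differ between panels. A library with 0 counts is drawn at the level of the prior count: TR-DS 1 and TR-DS 2 for miR396a, LR-DS 3 for miR396b. The spread of miR396b in LR-DS (SD 3.13) comes with that library.

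The make-up of the family differed between control and drought libraries: the share of miR396b in the miR396 counts was lower under drought and that of miR396c higher. The test over both root types, given below, passed the threshold narrowly. It would not pass with the pair of members counted as a single test, or without some of the libraries. A share within a library does not depend on how libraries are scaled to each other. In taproots, miR396b took 4.11%, 3.44% and 2.30% of the miR396 counts of the TR-CT libraries, against 1.50%, 1.53% and 0.578% for TR-DS. In lateral roots it took 4.52%, 4.65% and 3.87% for LR-CT, against 0.793%, 2.14% and 0% for LR-DS. All drought libraries lay below all control libraries of their root type, and the highest of them, LR-DS 2 at 2.14%, also lay below the lowest control, TR-CT 3 at 2.30%. The 95% Wilson intervals of those 2 libraries overlapped (1.78 to 2.58 and 1.99 to 2.64). For LR-DS 3, with 0 of 490 counts, 3 counts allow a share of up to 0.612%.

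The mean share of miR396b was 3.28% ± 0.92 in TR-CT and 1.20% ± 0.54 in TR-DS (SD, n = 3). For lateral roots it was 4.35% ± 0.42 under control conditions and 0.979% ± 1.08 under drought. With 3 against 3 libraries the exact two-sided permutation test gave p = 0.1 in each root type, the smallest value that 20 arrangements allow. Over both root types, with libraries exchanged only within a root type, the mean share was 3.82% under control conditions and 1.09% under drought, a difference of -2.72 percentage points (exact permutation p = 0.005, the smallest that 400 arrangements allow; Benjamini-Hochberg adjusted p = 0.045 over 18 tests of 3 members and 6 comparisons). The share was lower in 6 of 6 drought libraries. Without TR-CT 3 and TR-DS 2 the difference was -3.06 points, with p = 0.0167 by exact permutation, the smallest possible with those libraries, and an adjusted p of 0.15. Leaving out any single TR-DS library also raised the adjusted p above the threshold, to between 0.06 and 0.09, with differences of -2.81 to -2.57 points. Over all single libraries left out, the difference ranged from -3.02 to -2.48 points. Whether the difference was unequal between root types was not tested.

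As a ratio of the members, TR-CT had 43.0, 35.8 and 23.5 counts of miR396b per 1000 counts of miR396c, and TR-DS had 15.2, 15.6 and 5.84. LR-CT had 48.3, 49.2 and 40.7, and LR-DS had 8.06, 22.0 and 0. The share of miR396c rose by 3.18 points over both root types, from 95.4% to 98.6% (exact permutation p = 0.005, adjusted p = 0.045; adjusted p = 0.15 without TR-CT 3 and TR-DS 2). Since the shares add up to 100%, this is largely the same measurement as the fall of miR396b and not a second piece of evidence. The adjusted p of 0.045 of either member draws on the equal p of the other. Counted as a single test, the pair would have an adjusted p above the threshold of 0.05.

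**Figure D2:**
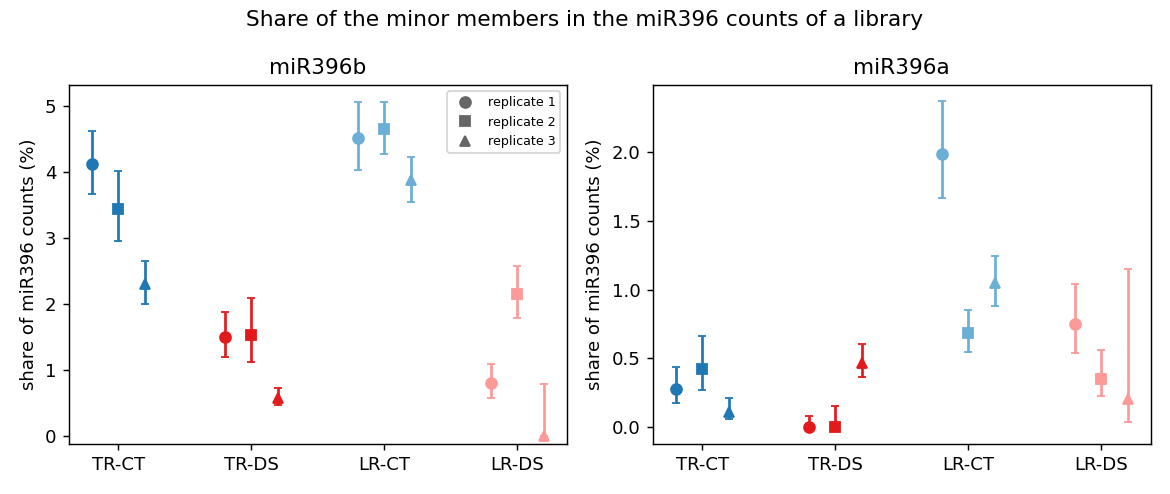
Share (%) of miR396b (left) and miR396a (right) in all miR396 counts of each library, with 95% Wilson intervals for counting error as bars and symbols for the replicates. All drought libraries of miR396b lie below the controls of the same root type, at 2.14% or less, against 2.30% or more. For miR396a the LR-CT libraries stand highest, at 0.684% to 1.99%.

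The share of miR396a did not pass the test for drought. TR-CT libraries had 0.276%, 0.425% and 0.110%, and TR-DS libraries 0%, 0% and 0.470%. LR-CT libraries had 1.99%, 0.684% and 1.05%, and LR-DS libraries 0.750%, 0.354% and 0.204%. The groups overlapped in both root types (exact permutation p = 0.6 in taproots and 0.2 in lateral roots; p = 0.08 and adjusted p = 0.164 over both). Between the root types, all LR-CT libraries lay above all TR-CT libraries, with means of 1.24% and 0.271% (exact permutation p = 0.1, the smallest possible). How often the shares of members of other families separated in this way between root types was not counted. Over both waterings the share was 0.838% in lateral roots and 0.214% in taproots (exact permutation p = 0.02, adjusted p = 0.12).

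The same measure was taken for the 39 members of the 11 families with more than 1 detected member. Only miR396b had a lower share under drought without overlap in both root types (2.56% of the 39), and only miR396c had a higher one (2.56%). In taproots alone 7.69% of the 39 members were lower without overlap, and in lateral roots alone 23.1%. On a log2 odds scale, with a count of 0.5 added, miR396b moved by -1.56 in taproots and by -3.00 in lateral roots, miR396c by 1.39 and 2.45, and miR396a by -2.41 and -1.38 with overlapping groups. Several members of other families moved further in either root type, as the plot of share changes in all families shows. Shares of members of 1 family are tied to each other, and no test was made across families.

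**Figure D3:**
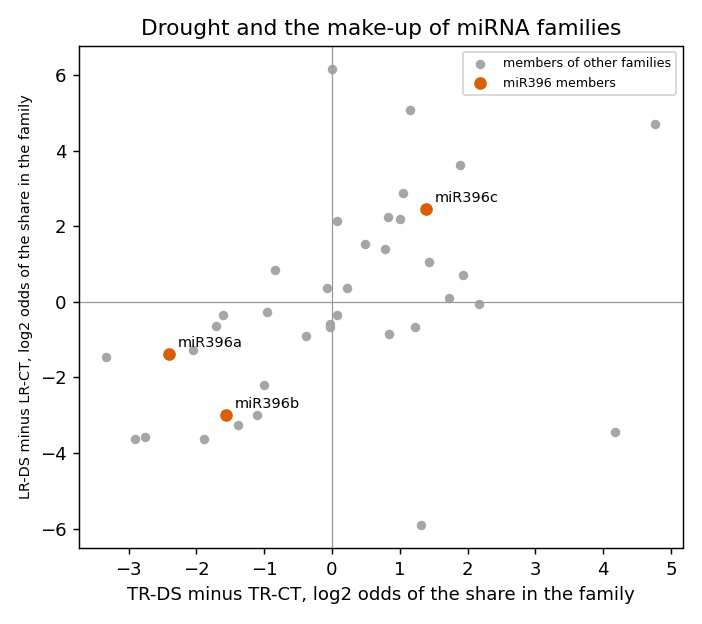
Drought difference in the log2 odds of a member's share of its family counts (mean of 3 drought libraries minus mean of 3 control libraries), in taproots (horizontal) and lateral roots (vertical), for 39 members of 11 families. Orange points are the miR396 members and grey points the members of other families. miR396b lies at -1.56 and -3.00, miR396c at 1.39 and 2.45, and grey points lie farther from the centre in both directions.

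How many of the members passed a test of level was asked with edgeR's quasi-likelihood test, with Benjamini-Hochberg adjustment over all miRNAs and an FDR of 0.05. In taproots none of the 3 members passed, nor did any of the 75 miRNAs (0%, with 3 at an unadjusted p of 0.05 or less; DESeq2 called 1). In lateral roots none of the 3 passed either, while 32% of the 75 did. A fit of all 12 libraries called none of the 75 for this comparison (0, with 16 at an unadjusted p of 0.05 or less). Of the 24 calls 7 were higher under drought, against 2 of 35 with scaling by library size alone and 14 of 23 with library sizes that left out the most abundant sequence. The fits over both root types, between root types and of the interaction called 0% each (15 miRNAs at an unadjusted p of 0.05 or less for drought over both root types, 5 for LR-CT against TR-CT, 4 for LR-DS against TR-DS, 6 for root type over both waterings and 5 for the interaction; DESeq2 called 2 for drought over both root types, 1 for LR-CT against TR-CT and 1 for the interaction).

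miR396b had a negative log2FC in each drought comparison. Its log2 CPM values were 8.61, 7.77 and 9.12 (TR-CT) against 8.10, 6.53 and 6.45 (TR-DS), with TR-DS 1 above TR-CT 2. The log2FC in taproots was -0.86 (SE 0.84, FDR = 0.997). Over 14 alternatives, with the 1 without TR-CT 3 and TR-DS 2 among them, it lay between -1.46 and -0.51 and never passed (lowest FDR 0.669). In lateral roots the levels were 7.66, 8.39 and 8.03 (LR-CT) against 6.02, 7.25 and 1.33 (LR-DS), where 1.33 is the level of 0 counts. These groups did not overlap, as was the case, in the direction of lower, for 32% of all miRNAs. The log2FC was -1.81 (SE 0.86, FDR = 0.119 by edgeR), against a median of -0.29 over all miRNAs. Over both root types it was -1.62 (SE 0.72, FDR = 0.203), and the interaction was -0.47 (SE 1.42, FDR = 0.966), an estimate too wide to tell the root types apart. Among 13 alternatives, the value in lateral roots passed the threshold in 2, library size alone and a replicate block (FDR between 0.0188 and 0.513 over the 13). Without LR-DS 3, the library at 0, it was -0.87 (FDR = 0.267).

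miR396c showed no fitted change with drought that exceeded its error. Its log2 CPM values were 13.14, 12.56 and 14.53 (TR-CT) against 14.13, 12.50 and 13.83 (TR-DS), with overlapping groups and a log2FC of 0.61 (SE 0.74, FDR = 0.997 by edgeR). In lateral roots they were 12.01, 12.72 and 12.63 (LR-CT) against 12.92, 12.74 and 11.67 (LR-DS), and LR-DS 3 was the lowest of the 6 and the other LR-DS libraries the highest. The log2FC there was 0.05 (SE 0.44, FDR = 0.948). Scaling by library size alone turned this to -1.15 (FDR = 0.0397), and that scaling moved the median of all miRNAs by -1.16. Without TR-CT 3 and TR-DS 2, a choice that favours a drought difference, the log2FC in taproots was 1.47 (SE 0.45, FDR = 0.0526).

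miR396a had log2FC values of 0.57 in taproots (SE 1.84, FDR = 0.997 by edgeR) and -1.09 in lateral roots (SE 0.82, FDR = 0.326). The lateral root value passed in 1 of 13 alternatives, library size alone, at -2.36 (FDR = 0.0250), and the taproot value in none of its 13. The taproot value rests on TR-DS 3, the TR-DS library with counts of miR396a, and was -6.58 without it, a fitted value that depends on the prior count of libraries at 0. The levels in lateral roots were 6.50, 5.68 and 6.18 (LR-CT) against 5.95, 4.77 and 3.20 (LR-DS), with LR-DS 1 above LR-CT 2.

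**Figure D4:**
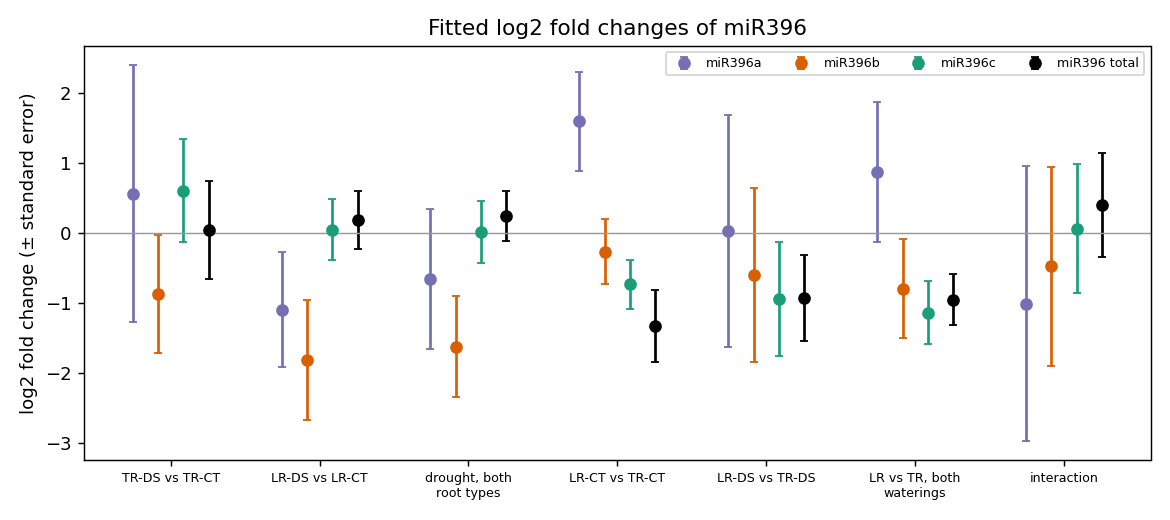
Fitted log2 fold change ± standard error (edgeR quasi-likelihood) of miR396a, miR396b, miR396c and the miR396 total in 7 comparisons of 4 groups. The total comes from a table summed by family with its own scaling. No value passed an FDR of 0.05. miR396b lies below 0 in the drought comparisons, at -0.86, -1.81 and -1.62, and the total below 0 in the root type comparisons, at -1.32, -0.92 and -0.95.

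The summed family was higher in taproots than in lateral roots under control conditions, but did not pass the test. The groups did not overlap outside the most abundant sequence or in log2 CPM of family sums. As a percentage of all counts of a library they did, with 0.353% in TR-CT 2 against 0.802% to 1.31% in LR-CT. Outside the most abundant sequence, miR396 held 3.26%, 3.24% and 4.63% of the counts of TR-CT libraries and 2.04%, 1.99% and 2.20% of those of LR-CT libraries. With family sums the log2 CPM was 12.98, 12.69 and 14.36 (TR-CT) against 12.48, 12.31 and 12.38 (LR-CT), and 10.6% of the 47 families and single sequences were lower in LR-CT in this way. The log2FC of LR-CT against TR-CT was -1.32 (SE 0.52, unadjusted p = 0.0359, FDR = 0.256 by edgeR), and scaling by library size alone gave 0.097. That scaling moved the median of all families and single sequences by 1.19 in this comparison and the miR396 total by 1.42. With single libraries left out, the log2FC of the total lay between -1.60 and -0.56 (FDR between 0.139 and 0.758 by edgeR).

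miR396c, nearly all of the family, and miR396b had negative values as well, and miR396a a positive one. In the table of single miRNAs, which has TMM factors of its own, miR396c had a log2FC of -0.73 in LR-CT against TR-CT (SE 0.35, FDR = 0.430 by edgeR) and miR396b one of -0.26 (SE 0.46, FDR = 0.856). The log2 CPM groups of miR396c overlapped there, with TR-CT 2 (12.56) below LR-CT 2 (12.72) and LR-CT 3 (12.63). miR396a had 1.60 (SE 0.71, FDR = 0.430), with all LR-CT libraries (5.68 to 6.50) above all TR-CT libraries (4.84 to 4.87), an upward separation that 18.7% of the 75 miRNAs had in this comparison. Under drought, LR-DS against TR-DS gave -0.92 for the total (SE 0.62, FDR = 0.914), -0.94 for miR396c (SE 0.81, FDR = 0.885), -0.59 for miR396b (SE 1.24, FDR = 0.906) and 0.03 for miR396a (SE 1.65, FDR = 0.984). Over both waterings the total was lower in lateral roots by a log2FC of -0.95 (SE 0.36, unadjusted p = 0.0203, FDR = 0.265), which did not pass.

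With drought, the summed family depended on single libraries. Its part of the counts outside the most abundant sequence was 4.73%, 3.74% and 5.81% for TR-DS, against 3.26%, 3.24% and 4.63% for TR-CT, with TR-CT 3 inside the TR-DS range. It was 3.75%, 4.22% and 1.88% for LR-DS, against 1.99% to 2.20% for LR-CT. LR-DS 1 and LR-DS 2 thus lay above all LR-CT libraries and LR-DS 3 below them. The log2FC was 0.05 in taproots (SE 0.70, FDR = 0.978 by edgeR) and 0.19 in lateral roots (SE 0.42, FDR = 0.662), in a fit that called 38.3% of the 47 families and single sequences in lateral roots and 0% in taproots.

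Without LR-DS 3 the log2FC of the total in lateral roots was 0.96 (SE 0.20, FDR = 0.00229). Without TR-CT 3 and TR-DS 2 that in taproots was 1.50 (FDR = 0.0133), where the choice of libraries favours a drought difference. Scaling by library size alone gave -1.21 in lateral roots (FDR = 0.0262). The size of the change of the whole family therefore moved with the library left out, and its direction in lateral roots with the scaling. With single libraries left out, the direction stayed in lateral roots (0.038 to 0.96) and moved in taproots (-0.24 to 0.87). Over both root types the log2FC was 0.25 (SE 0.36, FDR = 0.672), and it lay between -0.11 and 0.43 when single libraries were left out. The interaction was 0.40 (SE 0.74, FDR = 0.817), and turned to -0.54 without TR-CT 3 and to -0.82 without TR-CT 3 and TR-DS 2.

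**Figure D5:**
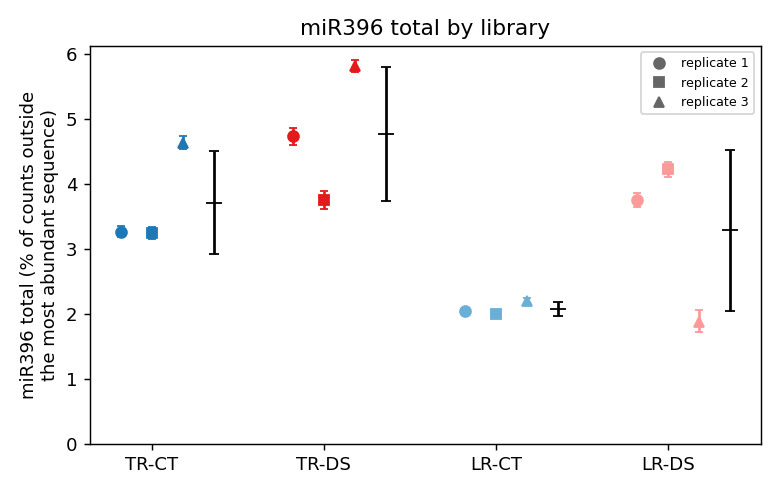
miR396 total as a percentage of the counts outside the most abundant 16-nt sequence, for each library, with 95% Wilson intervals as coloured bars (some smaller than the symbol) and the mean ± SD of 3 libraries in black. LR-CT lies between 1.99% and 2.20%, below every TR-CT library, and LR-DS 3 (1.88%) stands apart from LR-DS 1 (3.75%) and LR-DS 2 (4.22%).

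Across the 12 libraries the members followed different miRNAs. The log2 CPM of miR396c was most like that of miR408a (Pearson r = 0.95), miR166d (0.91) and miR398a (0.88). That of miR396b was most like miR168a (0.79), miR164d (0.79) and a miRNA named only by its sequence (0.71). In Arabidopsis, miR408 and miR398 target transcripts of copper proteins, miR166 those of HD-ZIP III transcription factors, miR168 that of ARGONAUTE1 and miR164 those of NAC transcription factors. The r between miR396b and miR396c was 0.55, between miR396a and miR396b 0.23, and between miR396a and miR396c -0.09. miR396a had 10 counts in only 8 libraries, under the 9 asked for, and was not ranked. These r values are descriptions over 12 libraries that share depth, scaling and groups.

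In the wider set of conserved miRNAs that target transcription factors in Arabidopsis, miR396 was among those that did not pass in lateral roots. The list holds 31 miRNAs of 11 families, 28 of them outside miR396. In lateral roots 3 passed as higher under drought (miR166a, miR166c and miR171d), as did 9.33% of all 75 miRNAs, and 5 as lower (miR156a, miR159a, miR166f, miR171c and miR319a), as did 22.7% of all, with a median log2FC of 0.05 over the list against -0.29 over all miRNAs. None of the 31 passed in taproots or in any other comparison.

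From this list miR319 and miR159 are given with values, because in Arabidopsis miR319 targets TCP transcription factors, which induce miR396. There miR159 targets MYB factors. miR319a had log2 CPM values of 8.60, 9.14 and 8.66 (LR-CT) against 6.90, 7.68 and 6.36 (LR-DS), without overlap and with a log2FC of -1.74 (SE 0.55, FDR = 0.0292 by edgeR). miR159a had a log2FC of -1.71 (SE 0.43, FDR = 0.00891). The miR319a call was lost on leaving out any of LR-CT 1, LR-CT 2, LR-CT 3, LR-DS 1 or LR-DS 3, with an FDR of up to 0.199, and held in 3 of 13 alternatives. The miR159a call held in 10 of 13 and was lost without LR-DS 1 (FDR = 0.0679). In a fit of all 12 libraries neither passed (FDR = 0.207 and 0.188). Over the 12 libraries the r with miR319a was 0.59 for miR396b, 0.33 for miR396a and -0.17 for miR396c, and with miR159a it was 0.68, 0.36 and 0.30.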

How the data were processed

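Small RNA libraries of 12 root samples were analysed as 1 table of counts. The authors trimmed the reads with Cutadapt (minimum length 15 nt), checked them with FastQC, and mapped and quantified them with ShortStack, which uses Bowtie, and known sequences from miRBase. The table they deposited gives raw counts, 1 value per mature miRNA and library. Versions, the build used for small RNAs and the division of reads that match several members are not given in the sources used here, so reads shared by near-identical members may be assigned uncertainly. Groups and replicates came from titles. The label of LR-DS 3 repeats the column name of LR-DS 2, and its column was taken by title.

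Counts were compared in R 4.3.3 with edgeR 4.0.16 (TMM, glmQLFit and glmQLFTest, only miRNAs with 1 or more counts over a fit's libraries, Benjamini-Hochberg, FDR 0.05). Each pairwise comparison used its 6 libraries. Drought or root type over both levels of the other factor (additive model) and the interaction used all 12. SE was the absolute log2FC divided by the square root of F. Family totals were fitted on counts summed by family (47 entries) with their own TMM factors. Shares within a library were compared by exact two-sided permutation of libraries. In simulated data on the 75 miRNAs, a log2 change of 2 was recovered for 0% of 150 changes in taproots and for 52.7% in lateral roots. A change of 4 was recovered for 47.3% and 97.3%. For drought over both root types the rates were 30% and 82.7%. Changes were set only in miRNAs above a minimum count and not in the most abundant one, so the rates do not cover scarcer miRNAs. The same miRNA could be drawn repeatedly.

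All members and their total were named. The 3 most alike miRNAs were ranked by Pearson r for members with at least 10 counts in 9 libraries. The members, the list of miRNAs that target transcription factors, and the tests were chosen with earlier results of these data known. Alternatives were library size alone, RLE factors, library sizes without the most abundant miRNA, DESeq2 1.42.0, filterByExpr, a replicate block, 1 fit of 12 libraries, members summed in 1 entry, log odds for shares, leaving out each library, and, added later, leaving out TR-CT 3 and TR-DS 2. Replicates are labelled biological, and the plants behind each pool are not given.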

Additional observations from a re-analysis of the deposited data

How the results depend on the processing

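The fall of the miR396b share and the rise of the miR396c share under drought over both root types kept their direction under log odds, with each library left out (-3.02 to -2.48 and 2.88 to 3.47 points) and without TR-CT 3 and TR-DS 2 (-3.06 and 3.52 points, adjusted p = 0.15 for each). The causes of the changes below were not tested, beyond the smaller number of arrangements that fewer libraries allow. Depth limits miR396a, with 0 to 127 counts per library, and LR-DS 3, with 490 miR396 counts in all.

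Scaling by library size alone gave, for the family total, a log2FC of -1.21 in lateral roots, -0.53 for drought over both root types, 0.097 for LR-CT against TR-CT and -1.36 for the interaction. For miR396c it gave -1.15 in lateral roots, -0.48 for drought over both root types, 0.067 for LR-CT against TR-CT and -1.34 for the interaction, for miR396b 0.50 in LR-CT against TR-CT, and for miR396a -0.069 in LR-DS against TR-DS and -2.36 (FDR = 0.0250) in lateral roots. In the table of single miRNAs it moved the median by -0.45 in taproots, -1.16 in lateral roots, 0.83 for LR-CT against TR-CT and -1.23 for the interaction, and in the table of family sums by -0.18, -1.34, 1.19 and -1.33. Relative to that median, miR396b stayed below it in each drought comparison and scaling. In the interaction, the total was -0.37 with RLE factors and with DESeq2, -0.28 as a sum in the table of single miRNAs and -0.82 without TR-CT 3 and TR-DS 2, and miR396c was -0.50, -0.50, -0.26 (filterByExpr) and -1.06 (without both libraries). The sum in the table of single miRNAs gave -0.0061 for the total in lateral roots, and leaving out TR-CT 3 and TR-DS 2 gave 1.50 in taproots. For LR-DS against TR-DS, miR396a was -0.20 with RLE factors, -0.21 with DESeq2 and -0.54 with filterByExpr. A fit of all 12 libraries gave -0.13 for miR396a and -0.017 for miR396c in taproots. On the log2 odds scale, the difference between root types was -0.27 for miR396b over both waterings and 0.35 for miR396c under drought.

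The number of miRNAs past an FDR of 0.05 in taproots (0) became 1 with library size alone, 1 with DESeq2 and 7 without TR-CT 3 and TR-DS 2. In lateral roots (24) it became 0 in a fit of all 12 libraries. For LR-CT against TR-CT (0) it became 1 with library size alone, DESeq2 or filterByExpr. For drought over both root types (0) it became 5 with library size alone, 2 with DESeq2 and 22 without TR-CT 3 and TR-DS 2. For the interaction (0) it became 1 with each of these settings. Leaving out TR-CT 3 and TR-DS 2 favours calls between waterings, since these libraries resembled the other watering.

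Leaving out 1 library at a time, the number ranged from 14 (without LR-CT 2; 15 without LR-CT 3) to 32 in lateral roots, 0 to 10 for drought over both root types (10 without TR-DS 2, 9 without TR-CT 3), 0 to 2 in either comparison of root types and 0 to 1 for the interaction. The total ranged from -0.24 to 0.87 in taproots, 0.038 to 0.96 in lateral roots, -0.11 to 0.43 for drought over both root types and -0.54 to 0.71 for the interaction. miR396a ranged from -6.58 to 1.34 in taproots, -0.89 to 6.69 in LR-DS against TR-DS, -2.23 to 0.062 for drought over both root types and -1.92 to 6.26 for the interaction. miR396b ranged from -1.58 to 0.29 for the interaction, and miR396c from -0.14 to 0.63 in lateral roots, -0.13 to 0.61 for drought over both root types and -0.71 to 0.41 for the interaction. For LR-DS against TR-DS the share difference ranged from -0.81 to 0.26 points for miR396b and -0.66 to 0.49 for miR396c. For miR396c over both waterings it ranged from -1.35 (without LR-DS 3, adjusted p = 0.03) to -0.76 points.

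The replicate numbers were not taken to pair the samples, since same-numbered libraries did not deviate together throughout, and not every library correlated best with its own number. Between waterings r was -0.29, 0.68 and 0.32 in taproots and -0.23, -0.06 and -0.02 in lateral roots. Between taproots and lateral roots r was -0.10, -0.30 and 0.03 under control conditions and 0.08, -0.26 and -0.26 under drought. A replicate block gave 2 calls in taproots and 17 in lateral roots, -2.17 for miR396a in taproots, -0.011 for miR396c in lateral roots, and -2.39 (FDR = 0.0387) for miR396b in lateral roots.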
